A study of Mus musculus with 68 samples.

Results

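Untreated mouse embryonic fibroblasts (MEFs) of the NOD/ShiLtJ (NOD) strain were compared with those of the other 7 Collaborative Cross founder strains, 129S1Sv/ImJ (129), A/J (A), C57BL/6J (B6), NZO/H1LtJ (NZO), CAST/EiJ (CAST), PWK/PhJ (PWK) and WSB/EiJ (WSB). The genes described are autosomal genes at which every NOD control library lay above, or every NOD control library lay below, all other control libraries. There were 350 such genes among 12547 autosomal genes tested, of which 184 were above (NOD-high genes) and 166 below (NOD-low genes). Controls were MEFs given 0.1% DMSO for 4 h, and the paired condition was 2 ug/ml of tunicamycin (TM), which blocks N-linked glycosylation and causes endoplasmic reticulum (ER) stress, for 4 h. The founder set held 18 control libraries, 2 of them from NOD (replicates 1 and 3), and 22 TM libraries, 3 of them from NOD. A second set of 28 libraries came from 5 F1 crosses of a B6 mother with a 129, CAST, NOD, NZO or WSB father. It held 14 controls, 3 of them from the cross to NOD (xNOD), and 14 TM libraries, 2 of them from xNOD. The MEFs of each genotype were pooled from several female embryos of a single litter and were used within a few passages. Strain and cell stock therefore cannot be told apart, and p-values measure the spread between libraries of the same stocks.

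NOD is an inbred strain that develops autoimmune diabetes without treatment, and many chromosomal intervals that change its risk (Idd loci) have been mapped. MEF cultures are mainly mesenchymal cells of whole embryos, and they can carry cells of other origins, such as Schwann cell precursors, gonadal or mesothelial cells, chondrocytes and macrophages. In bulk RNA, fewer cells of a type and less RNA per cell cannot be told apart.

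Values are reads per gene scaled to library size and not divided by gene length, so levels were compared between libraries and never between genes. Differences are in log2(value + 0.1), NOD minus the mean of the other strains with each strain weighted equally, ± SE. On this scale changes of low-level genes come out too small. The threshold in the founder sets was an adjusted p below 0.01 in limma together with a difference of 1.5 fold or more, and in the F1 sets an adjusted p below 0.05 (Benjamini-Hochberg over all genes). The 2 NOD controls held 20157717 and 15544046 reads on genes, and all 18 controls held 7091923 to 21530282. The median SD of log2 values between replicate controls was 0.183 in NOD and ranged from 0.0727 in B6 to 0.261 in A. Of the fibroblast markers, Thy1 was at 510 and 536 and Vim at 6469 and 6698 in the NOD controls, and the epithelial marker Epcam was not analysed here. In the F1 set xNZO control replicate 3 stood apart. It was the highest of the 14 F1 controls by at least 4 fold at 268 of 12189 autosomal genes, so results that rest on it are given with and without it. The next was xNOD control replicate 3, at 36 genes, and the other 12 controls had 0 to 4.

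NOD had the fewest genes outside all other controls of the 8 strains. By the same rule 129 had 725, A had 457, B6 had 604, CAST had 1506, NZO had 471, PWK had 1424 and WSB had 887. A and PWK had 3 controls and the other strains 2, and a strain with more controls has fewer chances to lie outside. NOD-high genes were 1.47% and NOD-low genes 1.32% of the genes tested. The rule is sensitive to its libraries: with only NOD control replicate 3 the numbers were 405 high and 367 low, and with only replicate 1 they were 1261 and 1102.

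**Figure D1:**
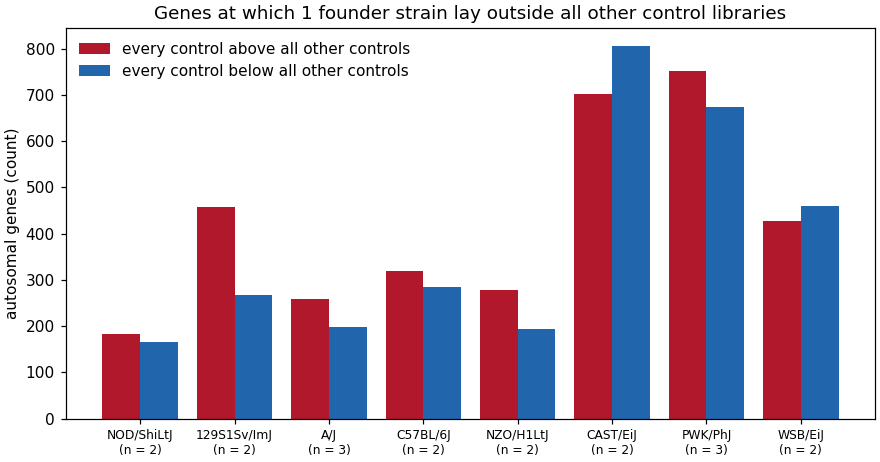
Number of autosomal genes (vertical axis, from 0) at which every control of the strain named on the horizontal axis lay above (red) or below (blue) all other control libraries, with the number of controls of the strain in parentheses. NOD, at 184 and 166, has the lowest sum, and CAST, at 701 and 805, the highest.

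The control fit itself placed 287 autosomal genes higher in NOD (2.29% of those tested) and 281 lower (2.24%), and 96 of the NOD-high and 89 of the NOD-low genes were among them. Since the same libraries chose the members, this count is a description. The remaining 191 higher and 192 lower genes overlapped another strain, most often 129, whose library was the extreme one for 50 and 55 of them. With the strain means as units, so that the error is the spread between strains, limma passed 0 genes. At an unadjusted p below 0.05 that fit gave 137 higher and 183 lower genes (1.09% and 1.46%). By edgeR on recovered reads, with the spread between libraries as the error, 391 genes were higher and 271 lower at the main threshold. All tests below use the spread between libraries.

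The NOD-high genes differed from the other strains by 0.23 to 5.99 in log2 (median 1.08), and 94 of 184 by at least 2 fold. The NOD-low genes differed by 0.18 to 5.06 (median −0.96), and 78 of 166 by at least 2 fold. The distance between the nearest NOD control and the nearest other control was at least 1.5 fold at 25 NOD-high and 17 NOD-low genes. At the edge of the rule, Tmem231 was just inside, with NOD controls at 13.1 and 13.9 and other controls up to 13.1. Hoxc6 was just outside, with NOD at 6.93 and 6.75 and others up to 6.75. On the low side Mmp14 was just inside, with NOD at 437 and 531 and others from 532, and Hoxd12 was just outside, since NOD and some other controls were all at 0.

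The rule used neither the TM nor the F1 libraries. In the 22 founder TM libraries, from the same cell stocks, 183 of 184 NOD-high genes passed the filter on low values, and 94 (51.4%) were higher in NOD, against 3.14% of all genes tested. Of the 166 NOD-low genes, 66 (39.8%) were lower, against 2.28% of all genes, and no member passed in the opposite direction. In the F1 controls, from other cell stocks with 1 NOD allele, 61 of 174 tested NOD-high genes (35.1%) were higher in xNOD than in the other 4 crosses, against 4.08% of all genes. Of 151 tested NOD-low genes 30 (19.9%) were lower, against 2.22%, and 4 passed in the opposite direction. In the F1 TM libraries 66 of 173 NOD-high genes (38.2%, against 6.76%) were higher and 59 of 151 NOD-low genes (39.1%, against 12.7%) were lower, with 1 in the opposite direction. Members higher in all of NOD TM, xNOD control and xNOD TM numbered 38, and members lower in all of them numbered 17. NOD or xNOD libraries lay outside all others, in the direction of the controls, at 59 NOD-high and 41 NOD-low genes in TM libraries (0.964% and 0.47% of all genes), at 24 and 10 in F1 controls (1.12% and 0.665%) and at 27 and 22 in F1 TM libraries (3.77% and 5.33%). The F1 counts rest on few libraries. Without xNOD TM replicate 1 the F1 TM counts were 23 and 12. Without xNOD control replicate 2 the F1 control counts were 40 and 13, and without replicate 1 or replicate 3 the lower count was 15 or 16. Without xNZO control replicate 3 they were 74 and 38.

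**Figure D2:**
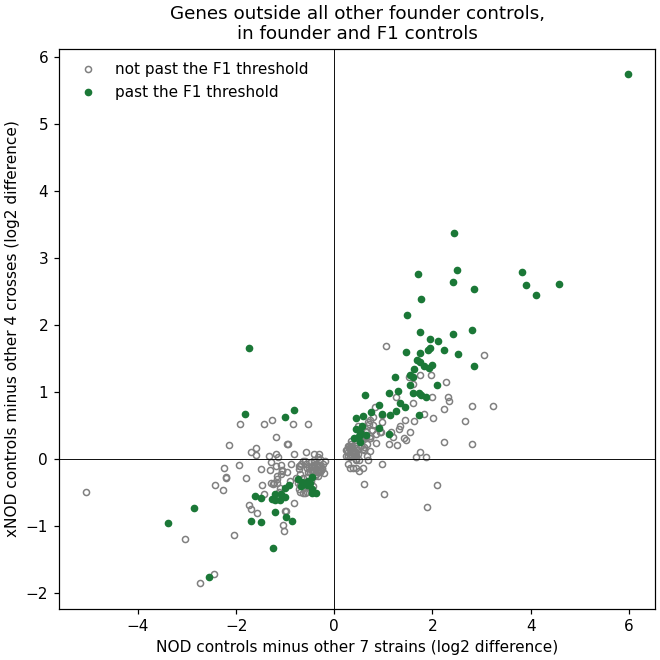
Each point is a NOD-high (right) or NOD-low (left) gene listed in the F1 tables, with the log2(value + 0.1) difference of NOD controls from the other 7 strains on the horizontal axis and of xNOD controls from the other 4 crosses on the vertical axis. Filled green points passed the F1 threshold, 61 of them high and 30 low in both sets, and the 4 green points with opposite signs are Spry1, Thbs2, Lad1 and Apold1.

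Among NOD-high genes, 3 neighbouring serine protease inhibitor genes stood out: Serpina3f, Serpina3g and Serpina3i, which span chr12:104214544-104269372 (GRCm38) and follow each other among the genes tested. Their family forms a tandem cluster in the mouse, is known as an acute-phase and inflammation-induced group, and has members similar enough that reads can be shared between them, so the split between copies is uncertain. The RefSeq sequences of the 250 bases before each start (GRCm38.p6, plus strand) are shown because the genes moved together. They lie at chr12:104214294-104214543, chr12:104235897-104236146 and chr12:104262872-104263121, and capitals mark the only match in each to TTCNNNGAA, the palindrome that STAT factors of cytokine signalling are known to bind.
Serpina3f: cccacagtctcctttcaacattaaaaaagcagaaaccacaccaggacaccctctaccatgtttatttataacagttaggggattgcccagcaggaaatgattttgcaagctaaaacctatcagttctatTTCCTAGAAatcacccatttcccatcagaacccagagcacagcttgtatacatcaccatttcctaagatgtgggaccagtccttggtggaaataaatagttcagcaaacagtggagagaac
Serpina3g: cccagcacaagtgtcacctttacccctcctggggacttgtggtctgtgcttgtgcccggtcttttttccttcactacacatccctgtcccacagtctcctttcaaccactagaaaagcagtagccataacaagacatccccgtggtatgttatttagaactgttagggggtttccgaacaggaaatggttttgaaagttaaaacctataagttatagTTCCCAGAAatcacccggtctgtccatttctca
Serpina3i: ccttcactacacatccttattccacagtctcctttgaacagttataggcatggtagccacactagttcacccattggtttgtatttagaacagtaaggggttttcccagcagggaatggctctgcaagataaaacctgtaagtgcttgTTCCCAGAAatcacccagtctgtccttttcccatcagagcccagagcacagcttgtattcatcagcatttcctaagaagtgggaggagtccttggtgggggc
The palindrome reads the same on both strands and occurs in 2306 of 32851 RefSeq promoters of this length (7.02%). The sequences are those of the reference genome, and NOD sequences were not examined. The 3 genes belong to a tandem cluster of similar members, so their matches need not be independent and cannot be set against that share. A match is a feature of the sequence and no evidence of binding. Its part in the NOD values was not tested.

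Serpina3i was at 11.1 and 13.2 in the NOD controls, against a median of 0.306 and a range of 0 to 5.74 in the 16 other controls. Serpina3g was at 9.04 and 9.84, against 0.506 to 2.21 (median 1.41), and Serpina3f at 1.1 and 1.89, against 0 to 0.745 (median 0.133). WSB came nearest to NOD for Serpina3i and Serpina3f. In NOD TM libraries Serpina3i was at 20.8, 20.3 and 18, against 0 to 7.77 elsewhere, a difference of 4.85 ± 0.42 (adjusted p = 2.03e-07). Serpina3g and Serpina3f were also higher there, by 2.73 ± 0.20 (adjusted p = 3.06e-08) and 2.99 ± 0.47 (adjusted p = 0.000208). The 1 other family member listed in the founder tables, Serpina3n, lay at 1.39 and 1.07 within the range of the other controls (0 to 14.5), and was higher in NOD TM libraries (1.83 ± 0.30, adjusted p = 0.000302).

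In the F1 set the ranking changed. Serpina3i was at 4, 4.64 and 3.62 in xNOD controls, above the 129, CAST and NZO crosses (0.0489 to 0.231) and below the 3 xWSB controls (20.5, 24.8 and 21.6). The log2 difference from the mean of the 4 crosses was positive (2.61 ± 0.24, adjusted p = 2.92e-05), although the plain mean of those crosses, 5.66, lay above the xNOD mean of 4.09 because of xWSB. Serpina3f passed as well (1.39 ± 0.36, adjusted p = 0.0377), but lost the call in 10 of 20 alternatives, among them a pseudocount of 1 and leaving out any 1 xNOD control (adjusted p up to 0.83). Serpina3g did not (0.79 ± 0.31, adjusted p = 0.18), with xWSB again highest at both.

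The other named NOD-high genes had varied roles. Ces1g, a carboxylesterase of lipid and drug metabolism, was at 10.8 and 7.82 in NOD controls, against 0.0512 to 3.1 in the others. It was higher by 4.08 ± 0.31 in NOD TM libraries (adjusted p = 3.68e-08) and by 2.45 ± 0.31 in xNOD controls (adjusted p = 0.000362), where 2.83, 2.8 and 2 exceeded all 11 other values (0.0712 to 1.13). Cd200, a surface glycoprotein that restrains myeloid cells through its receptor, was at 49.9 and 43.1, with the other controls spread from 0.912 to 41.3 and NZO nearest. In xNOD controls it was at 27.2, 28.4 and 29, against 0.553 to 23.5, a difference of 1.92 ± 0.14 (adjusted p = 6.34e-06). Zfp979, a zinc finger gene of a repetitive family, was at 20.7 and 8.26, against 0 to 7.22, and was higher in all 3 remaining sets (4.14, 2.59 and 3.22 in log2, largest adjusted p = 0.00106).

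The largest difference belonged to Rpl30-ps8, a processed pseudogene of a ribosomal protein gene, at 33 and 24.5 in NOD. A was at nearly the same level (up to 24), and the median of the other controls was 0.177. Its reads can be shared with the parent gene, so its level is uncertain. It was higher in xNOD controls (12.9, 13.8 and 9.89, against 0 to 0.498, difference 5.74 ± 0.44, adjusted p = 7.55e-06). Ankrd33b, at 7.08 and 8.89 against 0 to 1.56, was higher in TM, xNOD control and xNOD TM libraries too. Its difference in xNOD controls was 2.79 (adjusted p = 0.0103), and 3.06 without xNZO control replicate 3 (adjusted p = 8.82e-05). It did not pass without xNOD control replicate 2 or 3 (adjusted p up to 0.069). Apod (apolipoprotein D, a lipid carrier of glia and fibroblasts), Dlgap1 (a postsynaptic scaffold protein) and Bcl2l15 (a BCL2 family gene) were higher in NOD TM and xNOD TM libraries, and had adjusted p of 0.726, 0.397 and 0.83 in xNOD controls. The xNOD TM call of Apod was lost in 12 of 20 alternatives and that of Bcl2l15 in 10, each including either xNOD TM library left out. Bcl2l15 also lost its NOD TM call without NOD TM replicate 1 or 3 and with strain means as units. For Dlgap1 the xNOD controls were at 3.24, 2.92 and 3.03, and 10 of the other 11 F1 controls were at 0.459 to 1.03, while xNZO replicate 3 stood apart at 37.4. Without that library Dlgap1 was higher in xNOD controls (2.00, adjusted p = 0.000109).

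**Figure D3:**
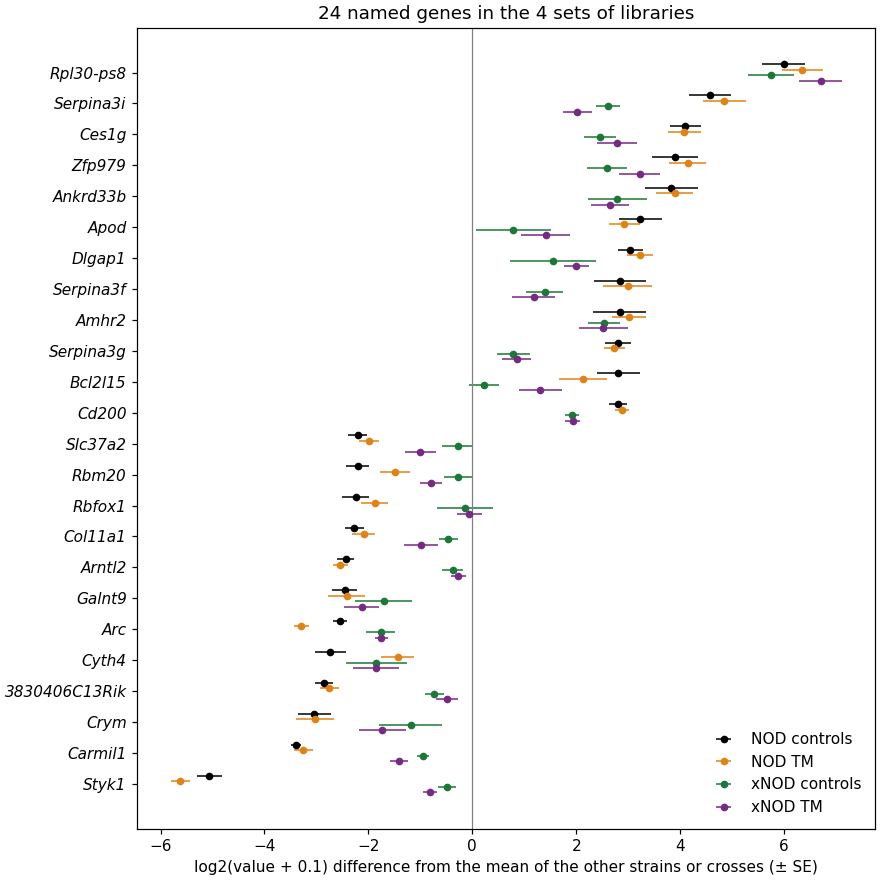
Log2(value + 0.1) difference (horizontal axis, ± SE) of NOD from the other 7 strains in controls (black) and TM libraries (orange), and of xNOD from the other 4 crosses in controls (green) and TM libraries (purple), for the 12 NOD-high and 12 NOD-low genes with the largest differences. All 24 genes pass in NOD TM libraries in the direction of the controls, 8 high and 3 low genes pass in xNOD controls, and 11 and 8 in xNOD TM libraries.

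Several NOD-high genes belong to the gonadal ridge and steroid-producing cells. In these lineages the transcription factors GATA4, NR5A1 (SF-1) and WT1 act together, StAR carries cholesterol into mitochondria, and CYP11A1 cleaves its side chain, the first step of steroid synthesis. A list of 24 such genes was drawn up after these values were seen, so its counts are descriptive. Of 18 tested, 9 were NOD-high and none NOD-low, 7 were past the threshold in controls (9 in edgeR), and the median difference was 1.27, against 0.01 over all genes. Of all genes tested, 1.47% were NOD-high and 2.29% passed as higher in controls. Star was at 10.9 and 11.2 in NOD controls and 1.36 to 5.87 in the others. Inha, the alpha subunit of inhibin, was at 13.7 and 14.6, against 1.15 to 7.39. Gata4 was at 2.53 and 3.09, against 0 to 1.8, and Nr5a1 at 1 and 1.45, against 0 to 0.839. NZO held the next highest strain mean at all 4 genes. Cyp11a1 was at 3.82 and 3.41, just above A (2.83 to 3.05), and Amhr2, the receptor of anti-Müllerian hormone, was at 3.97 and 3.85, against 0 to 1.66. Wt1 was at 6.79 and 8.7, against 0 to 6.29, and Tcf21 at 1.24 and 1.95, against 0 to 0.745, with control adjusted p of 0.0234 and 0.0101. Against 129, A, B6 and NZO alone, Gata4, Nr5a1 and Amhr2 did not pass in controls. Nr5a1 lost its control call in 13 of 28 alternatives, Gata4 in 5 and Cyp11a1 in 4 of 28, and Star and Inha in 2 of 29 each.

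The same genes were higher in NOD TM libraries, by 2.20 ± 0.20 for Star, 2.21 ± 0.27 for Inha, 2.90 ± 0.39 for Gata4 and 2.31 ± 0.39 for Cyp11a1 (largest adjusted p = 0.000411). They were also higher in xNOD controls, by 1.62 ± 0.16 for Star, 1.65 ± 0.16 for Inha, 2.82 ± 0.26 for Gata4, 2.64 ± 0.33 for Nr5a1 and 2.76 ± 0.52 for Cyp11a1 (largest adjusted p = 0.0056). Here NOD was not alone. Inha was at 12.9, 11.7 and 9.73 in xNOD controls and at 12.9, 15.4 and 12.1 in xNZO controls, while the 129, CAST and WSB crosses lay between 1.58 and 2.8. Star was at 6.57, 9.88 and 7.14 in xNOD and at 11.4 to 13.2 in xNZO, against 1.16 to 2.41 in the remaining crosses. Gata4, Nr5a1, Cyp11a1 and Amhr2 had the same arrangement, with xNOD and xNZO high and the 129, CAST and WSB crosses low. Fst, which encodes the activin-binding protein follistatin, was NOD-high in the founders (253 and 206, against 24.7 to 154) and had a difference of 0.10 ± 0.09 in xNOD controls (adjusted p = 0.714). The summed level of the list did not separate NOD (758 and 1276) from the other controls (556 to 1344), and its most abundant member, Inhba, was at 357 and 898, against 397 to 1126.

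The 3 mesothelial markers, which overlap with this group through Wt1, were all higher in NOD TM libraries, against 3.14% of all genes. In xNOD controls 2 of the 3 passed as higher, against 4.08%. Their summed level was 47 to 53.7 in NOD controls and 5 to 67.1 in the others, with NZO highest. Mesothelial cells line body cavities next to the gonadal ridge, and their part in the gonadal values was not tested.

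A further group marks Schwann cells and their neural crest precursors. SOX10 is the defining transcription factor of this lineage, ERBB3 receives the neuregulin signal that Schwann cell precursors depend on, and NGFR is the low-affinity neurotrophin receptor. Of a list of 20 genes, again drawn up after the values were seen, 17 were tested, 7 were NOD-high, 9 were higher in controls, and the median difference was 1.46. Of all genes tested, 1.47% were NOD-high and 2.29% higher in controls. No list gene passed as lower in limma or edgeR, and 1 was lower at an unadjusted p below 0.05. Sox10 was at 21.2 and 26.4 in NOD controls, against 0.456 to 14.7 (median 6.23). Ngfr was at 49.3 and 65.3, against 2.42 to 40.7 (median 16.6), and Erbb3 at 5.02 and 6.56, against 0.359 to 4.26. At these 3 genes 129 came next and A was lowest. Cadm4, Pmp2, Sh3tc2 and Cryab completed the NOD-high members, and Foxd3 and Gfra3 passed in controls without leaving the range of the other strains. The control call was lost in 19 of 29 alternatives for Foxd3 and in 14 of 29 for Erbb3. For Pmp2 and Sh3tc2 it was lost in 4 and 5 of 28, and for Sox10, Ngfr and Cadm4 in 2 of 29 each. S100b and Egr2 had differences of −0.52 and −0.59 (adjusted p = 0.32 and 0.182), with NOD inside the range of the other strains.

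In NOD TM libraries Sox10 was at 21.9, 21.7 and 21.8, above all 19 others (0.864 to 13.8, difference 2.59 ± 0.16, adjusted p = 1.62e-09). Ngfr and Erbb3 were higher by 2.34 ± 0.15 (adjusted p = 4.74e-09) and 2.09 ± 0.38 (adjusted p = 0.0008). In F1 controls the levels were low and the evidence weaker. Sox10 was at 1.03, 1.36 and 1.14 in xNOD, against 0 to 3.42 (1.56 ± 0.42, adjusted p = 0.0458). The highest of those others was xNZO replicate 3, without which the difference was 1.74 (adjusted p = 0.0015). The call was lost in 13 of 20 alternatives, among them the replicate block, a pseudocount of 1 and leaving out any 1 xNOD control (adjusted p up to 0.246). Ngfr was at 3.6, 3.32 and 5.14 in xNOD, against 0.502 to 3.36 (1.15 ± 0.34, adjusted p = 0.0679). Of the 14 list genes tested there, 4 were higher and none lower, against 4.08% and 2.22% of all genes. In xNOD TM libraries 5 of 14 were higher and 2 lower, against 6.76% and 12.7%. The summed level of the list was 654 and 694 in NOD controls, above all other controls (127 to 499), with Cryab alone at 397 and 432 of the NOD sums. Cryab was itself chosen as NOD-high from these controls, so the sum is a description. Its control call was lost in 3 of 29 alternatives, among them the classical strains alone.

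**Figure D4:**
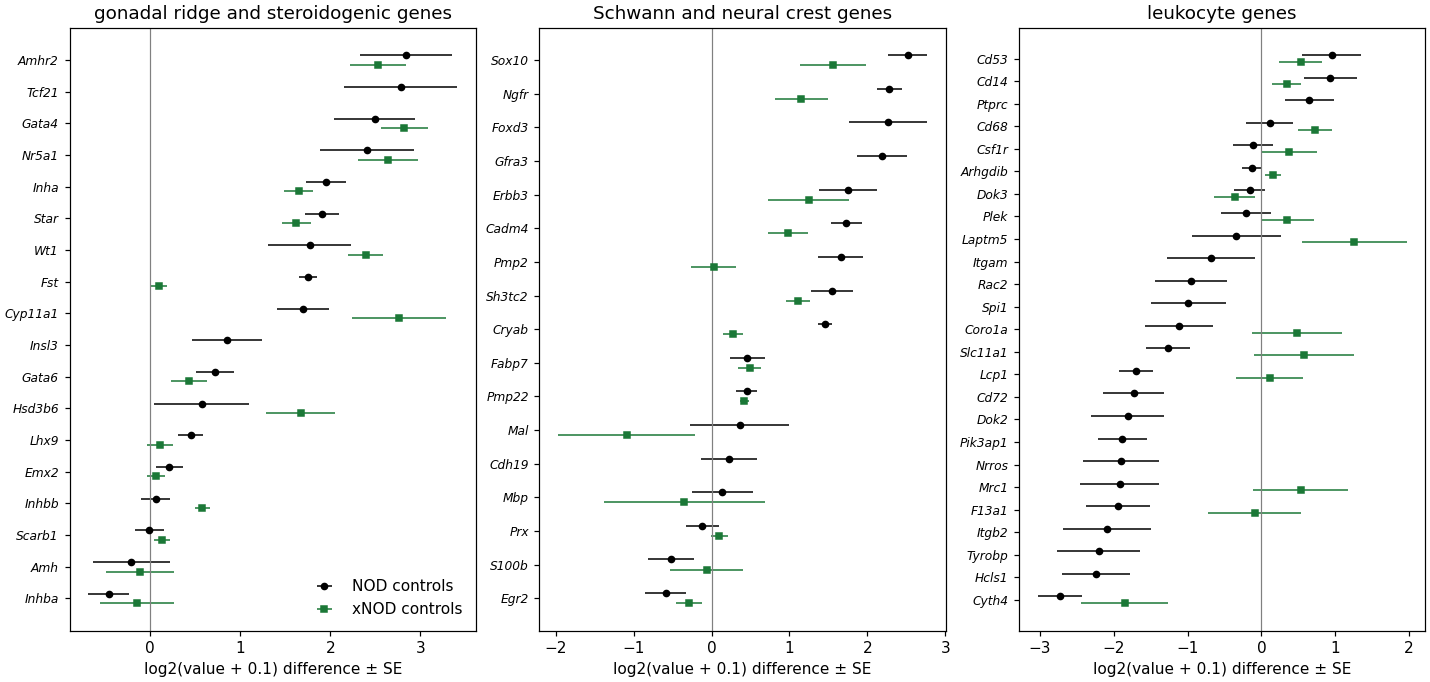
Log2(value + 0.1) difference (± SE) of NOD controls from the other 7 strains (black circles) and of xNOD controls from the other 4 crosses (green squares) for every tested gene of 3 lists drawn up after the values were seen; genes without a square were not tested in the F1 set. Gata4, Inha and Star lie to the right in both sets, Sox10 at 2.52 and 1.56, and the leukocyte genes that lie to the left in NOD controls lie between −0.36 and 1.26 in xNOD controls, apart from Cyth4.

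The lowest gene relative to the other strains was Styk1, a receptor-like kinase gene. Its NOD controls held 1 read in all (0.0478 and 0), and every other control held at least 11 reads (0.976 to 13.3). The ratio of the other strains to NOD was 181, with an exact 95% Poisson interval of 32.4 to 7139 that covers counting error only. In NOD TM libraries Styk1 was at 0, 0 and 0.114, against 2.36 to 16.9 (adjusted p = 2.79e-13). In xNOD, where 1 allele comes from B6, it was at 3.73, 4.04 and 4.22 in controls, against 3.47 to 9.79 (−0.49 ± 0.18, adjusted p = 0.169), and at 4.52 and 4.75 in TM libraries, below all others (6.38 to 9.78, −0.82, adjusted p = 0.00148).

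Carmil1, which encodes a regulator of actin capping protein, was at 3.92 and 3.15 in NOD controls and 19 to 51.9 in the others (−3.39 ± 0.10). The groups were also far apart in TM libraries, at 2.97, 2.96 and 3.89 against 17 to 52.3 (−3.25 ± 0.19, adjusted p = 1.23e-09). In the F1 set xNOD was again lowest, at 13.8, 14.4 and 16.5 in controls against 24.6 to 36.4 (−0.95 ± 0.12, adjusted p = 0.000408). The difference was thus smaller in log2 in the cross than in the strain, with the 2 sets scaled separately and the difference between them not tested.

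Arc, an activity-regulated gene of neurons that is also induced by serum, was at 3.39 and 4.86 in NOD controls, against 7.97 to 57.2. It was lower in NOD TM (−3.29 ± 0.14, adjusted p = 2.07e-11), in xNOD controls (8.28, 8.4 and 9.24, against 11 to 109, adjusted p = 0.00169) and in xNOD TM libraries. The uncharacterized gene 3830406C13Rik was at 1.05 and 0.631, against 4.82 to 9.24, and was lower in xNOD controls by 0.73 in log2 (−0.73 ± 0.18, adjusted p = 0.0302). That call was lost without any 1 of the 3 xNOD controls (adjusted p up to 0.167), and the gene did not pass in xNOD TM libraries (adjusted p = 0.108). Crym, a thyroid hormone binding protein gene, had 1 read in the 2 NOD controls against at least 2 in every other, a ratio of 44 (exact 95% Poisson interval 7.89 to 1737). Galnt9, Rbfox1, Slc37a2 and Rbm20 were the other low-level genes of this group, and all 4 were lower in NOD TM libraries (largest adjusted p = 0.00138). Galnt9 also passed in xNOD controls without xNZO replicate 3 (−1.47, adjusted p = 0.0195, against 0.0906 with it). Rbfox1 was at 2.92, 3.84 and 2.92 in xNOD controls, within the range of the other crosses (1.56 to 24.6).

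**Figure D5:**
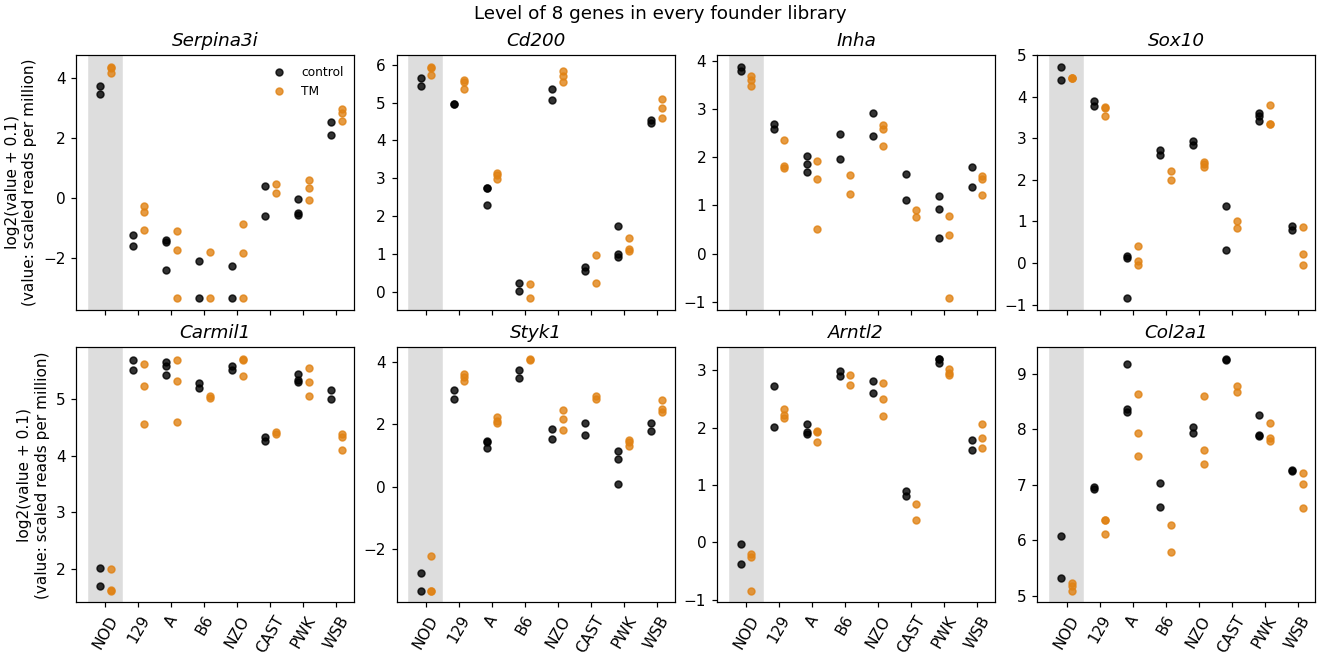
Level of 8 genes as log2(value + 0.1) (vertical axis) in every founder control (black) and TM library (orange) by strain, with NOD shaded. Serpina3i, Cd200, Inha and Sox10 are highest in the NOD controls, and Carmil1, Styk1, Arntl2 and Col2a1 lowest, with the strain that comes nearest differing from gene to gene.

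Among cartilage and matrix genes more were lower than higher in NOD. Col2a1, the main collagen of cartilage, was at 39.9 and 67.2 in NOD controls, against 96.3 to 615 (median 242), and Col11a1, which assembles with it, at 24.3 and 33.5, against 83.6 to 369. Both stayed lower in NOD TM libraries, by −2.23 ± 0.21 (adjusted p = 4.86e-07) and −2.09 ± 0.22 (adjusted p = 2.41e-06). In xNOD controls Col2a1 was at 61.4, 48.2 and 65 within a wide range of 0.753 to 637 (adjusted p = 0.919), and Col11a1 had an adjusted p of 0.192. Of 40 matrix genes tested, 10 were lower and 3 higher in NOD controls (median −0.45), against 2.24% and 2.29% of all genes. In NOD TM libraries 8 were lower and 4 higher, against 2.28% and 3.14%. The lower genes included the fibrillar collagens Col3a1 and Col5a1, the beaded-filament collagens Col6a1 and Col6a2, the fibrillin genes Fbn1 and Fbn2, and Loxl1, which crosslinks elastin. Of these, Col5a1 and Loxl1 were NOD-low, and Col3a1, Col6a1, Col6a2, Fbn1 and Fbn2 overlapped at least 1 other strain. Apart from Fbn2, each of these 7 genes lost its call without NOD control replicate 1 and against the classical strains 129, A, B6 and NZO, and Col5a1, Col6a1, Fbn1 and Fbn2 did not pass in NOD TM libraries. Col14a1, a collagen of fibril surfaces, went the other way, at 31.3 and 41.7 against 3.38 to 18.6, and was higher in NOD TM libraries (2.53 ± 0.25, adjusted p = 9.97e-07). In xNOD controls 4 matrix genes were higher and 9 lower (against 4.08% and 2.22% of all genes), with a median of −0.02. The summed level of the cartilage and bone markers was 63.2 and 111 in NOD controls, below all others (151 to 646). Col2a1, itself chosen as NOD-low from these controls, made up 39.9 and 67.2 of the NOD sums, so the sum is a description. The part of these markers in the matrix values was not tested.

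Leukocyte genes made up another part of the NOD-low genes. Of a list of 30 drawn up after the values were seen, 25 were tested, 10 were NOD-low and none NOD-high, 5 were past the threshold in controls, and the median difference was −1.11. Of all genes tested, 1.32% were NOD-low and 2.24% passed as lower in controls. At an unadjusted p below 0.05, 13 list genes were lower and 2 higher. The 10 NOD-low genes were all below 1 in both NOD controls. Mrc1, the macrophage mannose receptor, had 2 reads in both NOD controls together, and Hcls1 and Nrros had 1 read each, while the lowest other control also held only 1 read of each gene. Cyth4 was at 0.287 and 0.0631, against 0.441 to 4.74, and Lcp1 (plastin of blood cells) at 0.813 and 0.883, against 1.31 to 6.16. Lyz2, the macrophage lysozyme, was at 1.29 and 1.14, and WSB replicate 3 was as low (1.18), while A reached 43.1. Lyz2 was the 1 of 12 myeloid markers that passed in controls. Lcp1, Cyth4 and Lyz2 were lower in NOD TM libraries (−1.78, −1.44 and −3.60, largest adjusted p = 0.00392). Of the list genes past the threshold in controls, Hcls1, Pik3ap1 and F13a1 did not pass there (adjusted p = 0.0896, 0.122 and 0.622). F13a1 also lost its control call in 20 of 29 alternatives. The lower level in NOD controls did not extend to all leukocyte genes. Ptprc, the pan-leukocyte marker CD45, was at 1.1 and 0.946, in the upper range of the other controls (0.246 to 1.19), and Csf1r and Cd68 lay inside it. The summed level of the 12 myeloid markers tested was 19.2 and 19.8 in NOD controls and 8.97 to 72.8 in the others. That of the 25 leukocyte list genes tested was 91.3 and 108, against 75.1 to 195 (median 116). In xNOD controls none of the 14 list genes tested passed in limma or edgeR, with 1 higher and 1 lower at an unadjusted p below 0.05. Replicate 3 of xNOD was higher than the other xNOD controls at F13a1 (2.87, against 0.27 and 0.12), Lyz2 (9.95, against 5.22 and 1.52) and Cyth4 (0.865, against 0.135 and 0), and without it Cyth4 passed as lower (−2.74, adjusted p = 0.0137).

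Because NOD is a diabetes strain, genes proposed for Idd loci were listed. Of 23 listed, 11 were among the genes tested, 1 was higher and 1 lower in NOD controls (against 2.29% and 2.24% of all genes). The lower gene was Arntl2, a circadian transcription factor gene proposed for the Idd6 interval, at 0.669 and 0.883 in NOD controls against 1.65 to 9.06. CAST was the nearest strain and PWK the farthest. In NOD TM libraries it was at 0.767, 0.741 and 0.458, against 1.21 to 8.01 (−2.54 ± 0.15, adjusted p = 1.3e-09). In xNOD it was at 3.33, 2.88 and 2.97 in controls, within the range of the other crosses (2.07 to 6.41, −0.38 ± 0.20, adjusted p = 0.387). Slc11a1, the phagosomal metal transporter NRAMP1, was NOD-low at 0.287 and 0.189, against 0.294 to 1.29, and did not pass in NOD TM libraries (adjusted p = 0.0673). Ptpn22, a lymphoid phosphatase gene, passed as higher in controls while lying below PWK.

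Of 26 antigen presentation genes of the MHC class I pathway, 3 were higher in NOD controls and 1 was lower. The shares over all genes in these libraries were 2.29% and 2.24%. H2-Q1 was NOD-high at 2.29 and 1.77, against 0 to 1.43, and higher in NOD TM libraries (2.05 ± 0.31, adjusted p = 0.000152). H2-Q4 and H2-T10 were higher without leaving the range of A. H2-T22 was lower, at 5.07 and 4.86, while PWK lay below NOD (mean 2.23). The control call was lost in 4 of 28 alternatives for H2-Q1 and in 4 of 29 each for H2-Q4 and H2-T22. H2 genes are near-identical and differ between strains in copy number, so reads can move between copies and these levels are uncertain. Of 38 interferon-stimulated genes, 3 were higher and 1 lower. The NOD-high one was Ly6e, a surface protein that affects virus entry, at 168 and 152 against 11.2 to 123. Its founder control call was lost in 4 of 29 alternatives, among them the classical strains alone. It was higher in xNOD controls than in the mean of the other crosses (0.65 ± 0.11, adjusted p = 0.00328). The xNZO controls were at a like level there (mean 105, against 103 in xNOD). Ly6e did not pass in xNOD TM libraries (adjusted p = 0.0501). Of 23 complement genes 1, Cd59a, was higher in controls. In NOD TM libraries 8 of 22 tested were higher and 1 lower, against 3.14% and 2.28% of all genes.

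Position genes were shifted in both directions. Of 52 Hox and limb or axis genes, 5 were higher and 5 lower in NOD controls, against 2.29% and 2.24% of all genes. Hoxc8 was at 32.3 and 27.6, against 8.53 to 26.1, and Hoxc13 at 3.25 and 4.04, against 0.307 to 2.85. Hoxc8 was higher in NOD TM libraries (0.93 ± 0.17, adjusted p = 0.000767). In xNOD controls its log2 difference from the mean of the other crosses was positive (0.99 ± 0.10, adjusted p = 5.5e-05). There xNOD was at 21.9, 21.3 and 18.8, below xWSB (mean 44.3), while xCAST was lowest (mean 1.93). Hoxd13, a gene of distal limb and genital bud, was at 0.382 and 0.0631, against 0 to 19.8 (median 9.42), with 129 as low as NOD, and it was lower in xNOD controls (−1.87 ± 0.46, adjusted p = 0.0287). This call was lost without any 1 of the 3 xNOD controls (adjusted p up to 0.134). The xWSB controls lay below xNOD at Hoxd13 (mean 0.353, against 1.04). In xNOD controls 19 of the 52 genes were higher and 4 lower (against 4.08% and 2.22% of all genes), with a median of 0.48 against 0.00. Other lists also moved up in these libraries, with 7 of 27 cell cycle, 3 of 5 adipocyte, 2 of 5 endothelial and 2 of 6 smooth muscle genes higher, and their part in the result was not tested.

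Of 36 glutathione and xenobiotic enzyme genes, 4 were higher and 4 lower in NOD controls, against 2.29% and 2.24% of all genes. Gstm2, a glutathione transferase gene, was NOD-high at 53.7 and 44.1, against 1.42 to 35.7, and higher in xNOD controls (47.9, 56.8 and 45.3, against 11.3 to 47.4, adjusted p = 0.000702). Aldh1a3, which makes retinoic acid, was NOD-low at 6.98 and 8.64, against 12.6 to 53.7, and lower in xNOD controls (−0.92 ± 0.11, adjusted p = 0.000239). Ahrr, the repressor of the aryl hydrocarbon receptor, was NOD-low at 0.956 and 1.14, against 1.55 to 12.3, and did not pass in xNOD controls (adjusted p = 0.877).

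None of the 25 ER stress genes and none of the 27 cell cycle genes passed in NOD controls in limma or in edgeR. At an unadjusted p below 0.05, limma gave 2 higher and 3 lower ER stress genes and 3 higher and 1 lower cell cycle genes. Of the other marker lists, the endothelial (5 tested), epithelial (4), smooth muscle (6) and adipocyte (5) markers held 0 genes past the threshold in limma and in edgeR, with 0, 0, 1 and 1 genes at an unadjusted p below 0.05, all lower. Des was the 1 of 3 skeletal myogenic markers that passed, and it was higher, at 81.4 and 94.8, while NZO lay above NOD (mean 157). Its control call was lost in 5 of 29 alternatives, among them the classical strains alone. Of 10 fibroblast markers, Thy1 and Pdgfra were higher and Col3a1 and Pdgfrb lower, against 2.29% and 2.24% of all genes. Against the classical strains none of these 4 passed, and Thy1, which was at 2.18 and 2.8 in CAST, had a difference of 0.21, against 1.64 over all strains. Pdgfrb lost its call in 15 of 29 alternatives, including the replicate block.

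Members were spread over all 19 autosomes, from 1.72% of the genes tested on chromosome 8 to 5.15% on chromosome 15 (27 of 524), against 2.79% overall. Of the 350 members, 25 (7.14%) were next to another member in the order of tested genes, in 12 runs. A gene can adjoin a member on either side, so this share cannot be set against the 2.79%. The share that arises without clustering was not computed. Of the 13 neighbouring pairs 11 moved in the same direction. Col4a4 and Col4a3, the head-to-head basement membrane collagen genes on chromosome 1, were both NOD-high, at 2.63 and 4.16 (others 0.307 to 2.36) and at 3.25 and 4.98 (others 0 to 2.3). Both were higher in xNOD controls, by 1.90 ± 0.22 (adjusted p = 0.00015) and 1.79 ± 0.37 (adjusted p = 0.00987). Slfn2, a gene of lymphocyte quiescence, was NOD-high at 2.96 and 2.52 (others 0.459 to 1.29), while its neighbour Slfn3 was NOD-low at 0.191 and 0.189 (others 0.23 to 1.32). The Slfn genes are a family of close copies, so a shift of reads between them cannot be told apart from a change in level.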

How the data were processed

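RNA of MEFs was sequenced as single-end 100 bp TruSeq libraries, and per the labels the authors used FastQC, Trimmomatic, TopHat 1.4.1 and edgeR on GRCm38 (mm10), aligning to strain-specific genomes. Libraries that stood apart by principal components were removed by the authors, and TMM scaling was then repeated. The counter and strand setting are not given in the sources used here. The deposited values are called FPKM, but they are scaled signal: whole multiples of 1 step per library (within 0.05 of a whole number), not divided by length. Whole reads of 66 of 68 libraries were used in the tests on reads. PWK TM replicate 2 and WSB TM replicate 1 also gave whole multiples. They were left out of those tests because their steps, 0.100752 and 0.100521, lay close to 0.1. The tests had been planned for FPKM and were kept on the log scale. Founder and F1 tables were scaled separately and never compared in level. Of the F1 rows, 3 that name no gene (15.5% to 24.1% of totals) were left out. Of 13197 founder genes, 13023 had a position in GENCODE M21 (GRCm38) and 12571 were autosomal.

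Genes that reached 0.5 in 2 or more libraries were tested together by limma 3.58.1 (eBayes with trend, R 4.3.3) on log2(value + 0.1), with Benjamini-Hochberg adjustment. Alternatives included edgeR 4.0.16 (quasi-likelihood) on reads. Tables were made with Python 3.11.15. On simulated counts for the 18 controls (13114 genes), 42 of 50 genes changed 2 fold and 18 of 50 changed 1.5 fold were called, and 3 unchanged genes were called. The simulation gave all strains the same mean apart from the changed genes. It thus held no spread between strains, and these shares do not carry over to the real controls. Genes named are the 12 largest and 12 smallest differences among members past the threshold with a mean of at least 1, list genes past it, their neighbours and those at the edge of the rule. The members and lists were chosen with earlier results of these data known, and the gonadal, Schwann, cartilage and leukocyte lists and the neighbours described were chosen after their values were seen. Spans of reads per library, 7091923 to 21530282 in founder controls and 6442976 to 29528457 in the F1 set, leave values below about 1 with large counting error.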

Additional observations from a re-analysis of the deposited data

Results flagged for a closer look

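Thbs2, which encodes the matrix protein thrombospondin 2, was NOD-low in founder controls and moved the other way in the cross. It was at 148 and 170 in NOD controls, below all other strains (250 to 470), and at 154, 171 and 166 in NOD TM libraries, below all others (200 to 418, −0.88 ± 0.12, adjusted p = 5.67e-05). In xNOD controls it was at 413, 477 and 488, above all 11 other F1 controls (228 to 390), a difference of 0.63 ± 0.12 (adjusted p = 0.00533). In xNOD TM libraries the difference was 0.13 (adjusted p = 0.591). The difference between the founder and F1 effects was not tested, since the sets were scaled separately.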

How the results depend on the processing

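The number of genes higher and lower in NOD controls (287 and 281) fell to 128 and 140 against the classical strains 129, A, B6 and NZO alone, to 4 and 7 with the other 16 libraries weighted equally as a single group, and to 0 and 0 with strain means as units. At a 5% false discovery rate the lower count was 445. With strain means as units the members higher and lower in NOD TM libraries (94 and 66) were also 0 and 0 in limma, where 37 and 38 members had an unadjusted p below 0.05, against 0.55% and 0.502% of all genes. These alternatives put the spread between strains into the error or drop strains, and the fit over TM strain means and edgeR on the TM and F1 reads were chosen after seeing the data. The genes outside all other controls (184 high, 166 low) were 448 and 452 against the classical strains and 25 and 17 with a gap of at least 1.5 fold. All other settings tried for these counts left them within 1.5 times, apart from single libraries left out.

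Leaving out 1 library gave 90 to 371 genes higher and 82 to 400 lower in NOD controls, lowest without NOD control replicate 1, and 185 to 1261 outside high and 167 to 1102 outside low. Members higher and lower numbered 68 to 98 and 48 to 68 in NOD TM libraries, 40 to 74 and 13 to 45 in xNOD controls, and 23 to 75 and 12 to 71 in xNOD TM libraries. Replicate numbers were not taken as pairs, since 21 of 49 same-number pairs had correlated deviations above 0.1 (median 0.0796), against 27 of 92 different-number pairs (median −0.0168). With a replicate block the counts were 299 higher and 272 lower in NOD controls, 96 and 67 members in NOD TM, 65 and 37 in xNOD control and 66 and 59 in xNOD TM libraries. Of the 24 genes with the largest differences, all lost the control call with strain means as units, 17 with libraries weighted equally, Apod, Serpina3f, Amhr2 and Bcl2l15 without NOD control replicate 1, Serpina3f and Amhr2 without replicate 3, and Amhr2 against classical strains. Spp1, higher by 0.64 in controls, reversed to −0.08 against classical strains; the cause was not tested.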

Other observations

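The NOD-high histone genes Hist1h1d, Hist1h4i and Hist1h2be lie on chromosome 13. Hist1h1d was at 7.17 and 7.44 in NOD controls, against 1.24 to 5.73, Hist1h4i at 11.8 and 11.2, against 0.235 to 7.78, and Hist1h2be at 7.31 and 5.74, against 0.628 to 5.11. All 3 were higher in xNOD controls (adjusted p = 0.00641, 0.00617 and 0.00168). In those libraries 7 of 27 cell cycle genes were higher and 1 lower, against 4.08% and 2.22% of all genes, with a median of 0.28. Their part in the histone values was not tested. Another NOD-high histone gene, Hist1h3e, was at 1.05 and 1.26, against 0 to 0.655, and did not pass in NOD TM libraries (1.01, adjusted p = 0.117). The drug transporter gene Abcb1a and the phospholipid transporter gene Abcb4 on chromosome 5 were NOD-high, at 19.5 and 17.1 (others 2.39 to 15.6) and 1.48 and 1.58 (others 0 to 0.824). Both were higher in NOD TM libraries (1.29 ± 0.12, adjusted p = 4.31e-07, and 2.61 ± 0.46, adjusted p = 0.000613) and neither passed in xNOD controls (adjusted p = 0.792 and 0.285).

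Of the NOD-low genes, Grem1, a secreted antagonist of bone morphogenetic proteins, was at 152 and 146 in NOD controls, against 185 to 603, and Ctsk, the collagen-degrading cathepsin K, at 17.6 and 16.1, against 33.1 to 94.1. Both were lower in NOD TM libraries (−1.62 ± 0.16, adjusted p = 8.22e-07, and −1.70 ± 0.14, adjusted p = 7.69e-08), and in xNOD controls their differences were 0.04 and 0.06 (adjusted p = 0.957 and 0.89). Ccdc80, a matrix-associated protein gene, was lower in NOD TM libraries and in xNOD controls (−1.03 ± 0.08, adjusted p = 7.83e-08, and −0.57, adjusted p = 0.000238). The genes of this paragraph and the one before were chosen after their values were seen.

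Besides Thbs2, 3 NOD-low genes were higher in xNOD controls. Spry1, an inhibitor of receptor tyrosine kinase signalling, was at 7.27 and 7.06 in NOD controls (others 7.35 to 20.3) and at 19.3, 20.2 and 20.6 in xNOD controls (others 5.53 to 26.1, 0.73 ± 0.12, adjusted p = 0.00263). Apold1 and Lad1 had differences of 0.67 and 1.66 there (adjusted p = 0.0323 and 0.0125).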
